A study of Schizosaccharomyces pombe with 49 samples.

Results

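Loss of Red1 was followed in fission yeast cells at 4, 5 and 6 h of synchronous meiosis. The comparison holds 6 of the 49 RNA libraries of the study, chosen by their labels alone: 3 libraries of red1 deletion cells and 3 of wild-type cells, with 1 library per strain and hour. All 6 come from diploids with the pat1-as2 allele, an analog-sensitive form of the kinase Pat1. Both strains were grown in YEA, starved of nitrogen for 4 to 7 h, and put into meiosis with 25 µM 1-NM-PP1, the inhibitor of that kinase, in EMM medium at 26˚C. The wild type therefore also carries pat1-as2 and also received the drug. The labels do not say whether a strain is 1 clone or whether the hours are separate cultures.

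Red1 is a zinc finger protein that works with the RNA helicase Mtl1 in the complex known as MTREC, which hands selected nuclear RNAs to the exosome for destruction. In growing cells the RNA-binding protein Mmi1 marks meiotic transcripts for this route, and the protein Pir1 (gene iss10) connects Mmi1 to Red1. In meiosis the RNA-binding protein Mei2 and the non-coding meiRNA, made from sme2, hold Mmi1 in place at the sme2 locus, and the meiotic transcripts survive. MTREC also acts on other non-coding RNAs and on transcripts from silent regions.

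Levels are given as scaled CPM, which are reads per 1e6 gene reads after TMM scaling between libraries. Fold changes are log2, red1 deletion over wild type, with SE, from edgeR's quasi-likelihood test with the hour as a block and Benjamini-Hochberg adjustment over all genes tested. Because each strain has 1 library per hour, the p tells how steady a difference was over the 3 hours. Gene reads ran from 30.8 to 38.5 in the red1 deletion and from 28.6 to 54.9 in wild type, in units of 1e6. The top 10 genes by reads made up 10.9 to 13.8% of a library in the red1 deletion and 18.9 to 26.3% in wild type, and TMM factors were 1.09 to 1.28 in the red1 deletion and 0.8 to 0.893 in wild type. Scaling to total reads in place of TMM raised the median log2 fold change over all genes by 0.46 and gave 109 higher and 15 lower genes, so every direction here is relative to TMM scaling. Marker genes of both mating types were expressed in both strains, with summed levels of 537 to 624 in the red1 deletion and 970 to 1050 in wild type for M cells, and 728 to 865 and 575 to 830 for P cells.

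The deleted gene was checked before the others. red1 had 114, 142 and 89 reads at 4, 5 and 6 h in the red1 deletion, against 4683, 1927 and 3555 reads in wild type. Its scaled CPM of 2.63 to 3.18 in the red1 deletion lay below 84.1 to 112 in wild type, a log2 fold change of −5.07 ± 0.36 (adjusted p = 0.0035, edgeR). No other gene of the machinery passed in the fit of these 6 libraries. mtl1, the helicase partner, averaged 133 ± 24.4 scaled CPM in the red1 deletion and 68.8 ± 12.4 in wild type (SD, n = 3 each), a log2 fold change of 0.96 ± 0.31 (adjusted p = 0.186). The log2 fold changes of iss10, mmi1 and the exosome gene rrp6 were −0.31, −0.05 and −0.15, none past the threshold, and all were positive when scaled to total reads (0.15, 0.41 and 0.32). Of the 26 RNA elimination and exosome genes tested, red1 fell and none rose (median −0.19, and 0.28 when scaled to total reads). In a fit that shared the spread of 16 libraries from 1 to 8 h, described with the counts over all genes, 2 of the 26 rose and 4 fell, beside 8.12% and 8.97% of all genes. mtl1 was among those that rose there (0.96, adjusted p = 0.0184).

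Of 5585 genes tested, 23 rose (0.412%) and 9 fell (0.161%), and 1023 had an unadjusted p under 0.05. All 32 moved in the same direction at each hour. The count rests on few libraries, since the fit of 6 libraries leaves 2 residual degrees of freedom. When the 16 libraries of both strains from 1 to 8 h shared 1 estimate of the spread, with 5 residual degrees of freedom, 461 of 5674 genes rose (8.12%) and 509 fell (8.97%) at 4 to 6 h. That larger set held all 32. With no test, 161 genes (2.88%) stood at least 2-fold higher and 148 (2.65%) at least 2-fold lower at each of the 3 hours. The count also moved with the hours used. Without the 4 h pair 508 genes rose and 656 fell, without the 5 h pair 19 and 4, and without the 6 h pair 216 and 146.

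The transcriptome of the red1 deletion changed little between 4 and 6 h, while that of wild type changed widely. Among 5100 genes, 157 stood at least 2-fold higher and 16 at least 2-fold lower at 6 h than at 4 h in the red1 deletion, against 1325 and 1041 in wild type. Differences between the strains therefore depended on the hour. At 4 h, 986 genes were at least 2-fold higher and 701 lower in the red1 deletion than in wild type, at 5 h 656 and 677, and at 6 h 859 and 960. These per-hour values compare single libraries and have no replicate check. Little change between 4 and 6 h was not particular to the red1 deletion. In the pir1 deletion 167 of the 5100 genes were at least 2-fold higher and 51 lower at 6 h than at 4 h.

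Each red1 deletion library lay closest to wild type at 3 h. The median absolute log2 difference over the 5100 genes was 0.346 between the red1 deletion at 4 h and wild type at 3 h, against 0.633 to wild type at 4 h. For the red1 deletion at 5 h it was 0.393 to wild type at 3 h and 0.531 to wild type at 5 h. At 6 h the smallest values were close to each other, 0.461 to wild type at 3 h and 0.474 to wild type at 5 h, and the value to wild type at 6 h was 0.676.

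**Figure D1:**
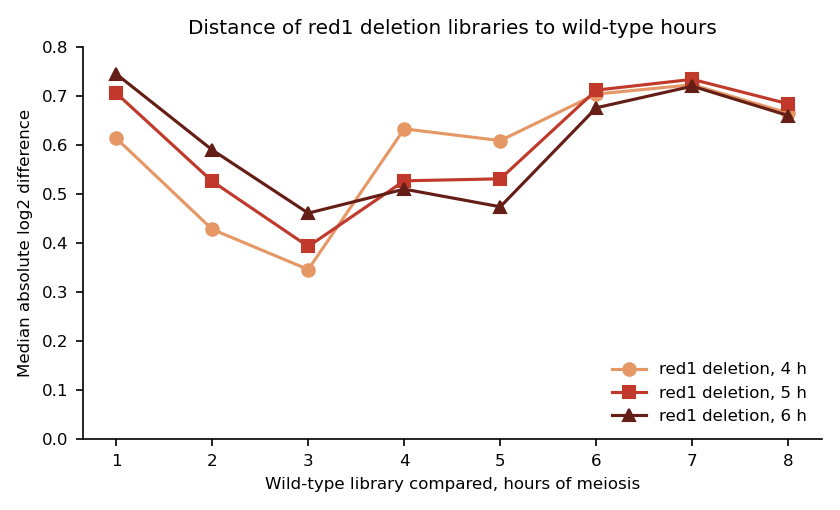
Median absolute log2 difference in scaled CPM (y axis) between each red1 deletion library of 4, 5 or 6 h (lines) and each wild-type library of 1 to 8 h (x axis), over 5100 genes. All 3 lines have their lowest point at wild type 3 h, at 0.346, 0.393 and 0.461.

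Genes of middle meiosis, which drive the divisions and build the spore membrane, reached their highest level later in the red1 deletion. mei4, the forkhead transcription factor that turns this programme on and itself a target of Mmi1, stood at 363, 412 and 390 scaled CPM at 4, 5 and 6 h in the red1 deletion, against 852, 208 and 77 in wild type. The red1 deletion was the lower strain at 4 h and the higher at 5 and 6 h, so the groups overlap. Its log2 fold change of 0.74 ± 0.72 (adjusted p = 0.643) averages hour ratios of −1.23, 0.99 and 2.34, and without the 6 h pair it was −0.11. mes1, an inhibitor of the anaphase-promoting complex that permits the meiosis II division, stood at 284, 390 and 443 scaled CPM in the red1 deletion, against 781, 163 and 58.9 in wild type. The glucan synthase gene bgs2, needed for the spore wall, crossed in the same way, with 2310, 3600 and 4020 in the red1 deletion and 8890, 3780 and 863 in wild type. For mes1 and bgs2 the log2 fold changes were 0.97 ± 0.88 (adjusted p = 0.61) and 0.05 ± 0.83 (adjusted p = 0.987), both negative without the 6 h pair (−0.089 and −0.999).

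The pattern held for most of the list when overlapping genes were counted by strand. Many meiotic genes overlap a feature on the other strand, and reads in such overlaps are dropped from counts made without strand, so 35 members of the lists other than those of ribosomal proteins, snoRNA genes and long non-coding RNAs were not tested there. These 35 were tested with the strand column of larger total, and none passed (of 6539 genes, 25 rose and 11 fell in that column, 0.382% and 0.168%). In the strand column all 24 middle meiosis genes could be followed. At 4 h, 18 of 24 stood at least 2-fold lower in the red1 deletion, where 12.8% of all genes did. At 6 h, 20 of 24 stood at least 2-fold higher, where 15.6% of all genes did.

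The hour of the highest level between 1 and 8 h was 6 h for 16 of these 24 genes in the red1 deletion, and 4 h for 16 of 24 in wild type. Their levels at 6 h against 4 h had a median log2 ratio of 0.82 in the red1 deletion and −2.77 in wild type. After TMM scaling the highest hourly level was lower in the red1 deletion for all 24, with a median log2 ratio of −0.71 (range −1.34 to −0.23). Scaling to total reads raised the median log2 fold change over all genes by 0.46 without strand, and these ratios are not given under it. In bulk RNA, fewer cells at a stage and less RNA per cell cannot be told apart.

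spo6, which encodes the regulatory partner of the kinase Spo4 in meiosis II, is an example from the strand column. It stood at 1320, 2650 and 3650 scaled CPM at 4, 5 and 6 h in the red1 deletion, against 6870, 2760 and 520 in wild type. Its strand log2 fold change was 0.07 ± 1.07 (adjusted p = 0.978), with hour ratios of −2.39, −0.06 and 2.82. Its partner spo4 stood at 966, 1580 and 1750 in the red1 deletion, against 4430, 1100 and 245 in wild type. meu14, which acts at the leading edge of the forespore membrane, stood at 952, 1490 and 1830 in the red1 deletion, against 2940, 1700 and 296 in wild type. All 3 genes were below wild type at 4 h and above it at 6 h.

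Of the 14 middle meiosis genes tested without strand, none rose or fell, in the 6-library or the 16-library fit. cdc25, the phosphatase that activates the cell cycle kinase, stood at 319, 364 and 335 scaled CPM in the red1 deletion, against 451, 161 and 58.1 in wild type (log2 fold change 1.08 ± 0.62, adjusted p = 0.408). psy1, a membrane fusion protein of the forespore membrane, stood at 307, 435 and 508 in the red1 deletion, against 815, 976 and 519 in wild type (−0.87 ± 0.40, adjusted p = 0.312). The medians of these 14 by hour were −1.19, 0.49 and 1.48, against 0.03, 0.02 and −0.01 over all genes. By strand the medians over all 24 members were −1.42, −0.13 and 2.22, so the sign at 5 h depended on the members counted. At 5 h by strand, 5 stood at least 2-fold lower in the red1 deletion and 3 at least 2-fold higher.

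**Figure D2:**
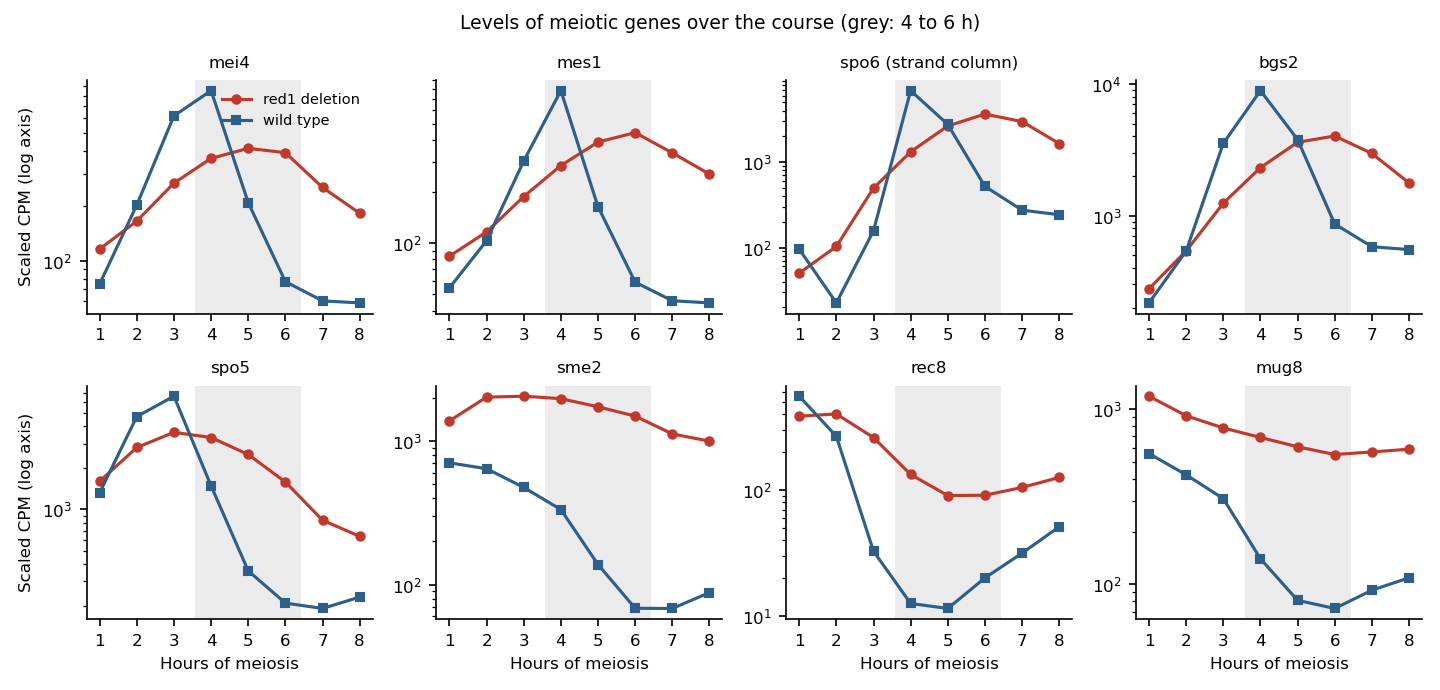
Scaled CPM (log axis) of 8 meiotic genes from 1 to 8 h in the red1 deletion (red circles) and wild type (blue squares), 1 library per point, with 4 to 6 h shaded and spo6 counted by strand. The mei4, mes1, spo6 and bgs2 curves cross inside the shaded hours, while sme2 and mug8 are higher in the red1 deletion at every hour.

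Several transcripts marked by Mmi1 rose in the red1 deletion at 4 to 6 h, hours at which their wild-type levels were below those of 1 h. Of 14 Mmi1 targets tested, 3 rose and none fell, beside 0.412% and 0.161% of all genes (median 1.55, against 0.02 over all genes). In the 16-library fit 8 of the 14 rose and none fell, beside 8.12% and 8.97% of all genes. sme2, the gene of meiRNA, stood at 1970, 1730 and 1490 scaled CPM in the red1 deletion, against 333, 138 and 68.4 in wild type. The groups do not overlap, and the red1 deletion also lay above the wild-type maximum of 704 at 1 h. It rose by 3.56 ± 0.49 (adjusted p = 0.0478), a call lost without the 5 h pair (3.50, adjusted p = 0.117) and by strand (3.61, adjusted p = 0.054).

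rec8, the meiotic cohesin that holds sister chromatids together, stood at 133, 90.5 and 91 scaled CPM in the red1 deletion, against 12.6, 11.5 and 20.1 in wild type, and rose by 2.85 ± 0.37 (adjusted p = 0.0414). mug8, a coding gene upregulated in meiosis, stood at 687, 608 and 549 in the red1 deletion, against 140, 81.1 and 72.9 in wild type, and rose by 2.71 ± 0.35 (adjusted p = 0.0414). Both groups of libraries are apart for each gene, though wild type reached 556 scaled CPM for rec8 at 1 h, which is above the red1 deletion at 4 to 6 h. Without the 5 h pair neither call held (2.79, adjusted p = 0.0782 for rec8, and 2.60, adjusted p = 0.292 for mug8).

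The other targets did not pass, and they were not all alike. Of the 14 tested, 13 had a positive log2 fold change. At 4 h, 9 stood at least 2-fold higher and 2 at least 2-fold lower, beside 986 and 701 of 5585 genes. tht2, under 1 scaled CPM in all 6 libraries, had −0.05. meu1 had 0.24, with hour ratios of −1.61, 0.11 and 2.29. spo5, an RNA-binding protein needed for progression through meiosis II, stood at 3320, 2500 and 1580 scaled CPM in the red1 deletion, against 1480, 358 and 209 in wild type (2.31 ± 0.48, adjusted p = 0.0814). mug9 averaged 42.4 ± 2.53 in the red1 deletion and 14.3 ± 0.363 in wild type (SD, n = 3 each; 1.57 ± 0.30, adjusted p = 0.0725). The log2 fold changes of the cyclin gene crs1, the kinase gene mek1 and the dynactin gene ssm4 were 1.72 (adjusted p = 0.104), 1.67 (0.132) and 1.28 (0.119). By strand, num1, which anchors dynein at the cell cortex, had 1.45 ± 0.28 (adjusted p = 0.0802), and the cyclin gene rem1 had 0.39 ± 0.75 (adjusted p = 0.836) with hour ratios of −1.61, 0.49 and 2.24.

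Genes of meiotic prophase, whose products pair, break and recombine chromosomes before the divisions, had positive medians in the same hours, with rec8 the 1 member to pass in the 6-library fit. None of the 10 recombination genes tested without strand rose or fell (median 1.10), and 2 of 11 rose in the 16-library fit, beside 8.12% of all genes. The leading member meu13, a factor for homologue pairing, averaged 30.9 ± 8.37 scaled CPM in the red1 deletion and 7.43 ± 0.737 in wild type (SD, n = 3 each; 2.03 ± 0.35, adjusted p = 0.0645). The linear element genes rec25 and rec10 had log2 fold changes of 1.53 (adjusted p = 0.111) and 1.28 (0.102), and by strand rec27 had 2.20 (0.0802) and the recombinase gene dmc1 1.24 (0.12). Hour medians of the list were 1.78, 1.10 and 0.83 at 4, 5 and 6 h.

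Of 8 cohesion genes, rec8 rose and none fell (median 1.18), beside 0.412% and 0.161% of all genes. In the 16-library fit 4 of 8 rose, beside 8.12% of all genes. The monopolar attachment factor moa1 stood at 37.3, 23.8 and 13.8 scaled CPM in the red1 deletion, against 11.3, 3.14 and 2.01 in wild type (2.47 ± 0.40, adjusted p = 0.0618). The meiotic cohesin subunit rec11 averaged 136 ± 36 in the red1 deletion and 55.7 ± 15.9 in wild type (SD, n = 3 each; 1.30 ± 0.27, adjusted p = 0.0814). In counts without strand, sgo1, the protector of centromeric cohesin, was under 1 scaled CPM in all 6 libraries. It averaged 0.945 ± 0.029 in the red1 deletion and 0.111 ± 0.071 in wild type (SD, n = 3 each). Its log2 fold change was 3.10 ± 0.60 (adjusted p = 0.0725). Such counts can miss many reads. The middle meiosis gene spn6 stood at 1.63, 1.93 and 1.95 without strand in the red1 deletion, and at 784, 1200 and 1450 by strand. By strand all 9 cohesion genes were tested, sgo1 among them, and 1 rose, beside 0.382% of all genes. The sgo1 values of that column are not given here. Of 10 horsetail and bouquet genes, which move the nucleus in prophase, none passed (median 0.65). In the 16-library fit 3 of 11 rose, beside 8.12% of all genes. The leading 2 were the dynactin gene arp1 at 1.66 (adjusted p = 0.0725) and ssm4, with the bouquet gene bqt1 at 1.21 (0.132).

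Of the 7 genes of meiotic entry tested, sme2 rose and none fell (median 0.74), beside 0.412% and 0.161% of all genes. In the 16-library fit 3 of 7 rose, beside 8.12% of all genes. mei2 stood at 1440, 1130 and 906 scaled CPM in the red1 deletion, against 744, 344 and 246 in wild type (1.52 ± 0.37, adjusted p = 0.104), and passed in the 16-library fit (adjusted p = 0.0133). The transcription factor gene ste11 and the kinase gene pat1 had log2 fold changes of 1.0 (adjusted p = 0.173) and 0.74 (0.247). Of 5 meiotic cyclin genes, none passed (median 1.15), with cig2 at 1.42 (adjusted p = 0.111) and cig1 at 1.15 (0.176). In the 16-library fit 2 of 5 rose and 1 fell, beside 8.12% and 8.97% of all genes. Of 16 S phase genes, none passed (median 0.71). The leading members were the DNA polymerase gene pol1 at 1.67 (adjusted p = 0.0733) and the transcription factor gene res2 at 1.42 (0.0955). In the 16-library fit 2 of 16 rose, beside 8.12% of all genes.

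A block of genes at the right end of chromosome II, barely expressed in wild type at 4 to 6 h, was expressed in the red1 deletion. In the reference annotation the run goes from SPNCRNA.1695, beside nrg1, to SPBPB2B2.14c, and 11 coding genes of it and 2 long non-coding RNAs rose. They make up 13 of the 23 genes that rose. Several carry no symbol and lie outside the naming rule, and were described after their values were seen. The galactose genes are the known part of the run, with gal7 for the uridylyltransferase, gal10 for the epimerase and gal1 for galactokinase. Part of the block was expressed in the red1 deletion before meiosis too. In vegetative cells pan5 stood at 73.7 scaled CPM, against 0.295 and 0.527 in wild type, and nam3 at 50.7, against 0.107 and 0.0753. SPBPB2B2.07c, SPBPB2B2.08, SPBPB2B2.14c and SPNCRNA.1695 were under 1 scaled CPM in the vegetative red1 deletion library.

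nam3, a non-coding RNA between say1 and SPBPB2B2.05, stood at 127, 106 and 109 scaled CPM at 4, 5 and 6 h in the red1 deletion, against 0.148, 0.393 and 0.189 in wild type. The log2 fold change of 8.97 ± 0.52 (adjusted p = 0.0035) was the largest rise of all genes tested. Reads behind it were 5002, 4742 and 3671 in the red1 deletion, against 7, 9 and 6 in wild type. gal1 stood at 27.3, 41.8 and 52.4 scaled CPM in the red1 deletion, against 0.381, 0.175 and 0.377 in wild type (6.95 ± 0.52, adjusted p = 0.00354). gal7 stood at 35.8, 31.3 and 31 in the red1 deletion, against 0.36, 0.524 and 0.252 in wild type (6.47 ± 0.45, adjusted p = 0.0035). gal10 had 253, 513 and 599 reads in the red1 deletion, against 2, 3 and 2 in wild type, so its log2 fold change of 7.20 ± 0.55 (adjusted p = 0.00354) rests on very few wild-type reads.

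The neighbours followed, each with the groups fully apart. pan5 stood at 34.8, 34.3 and 34.2 scaled CPM in the red1 deletion, against 0.339, 0.654 and 0.535 in wild type (6.12 ± 0.44, adjusted p = 0.0035). say1 stood at 25, 29.5 and 34.5 in the red1 deletion, against 0.571, 0.567 and 0.849 in wild type (5.49 ± 0.39, adjusted p = 0.0035). nrg1 stood at 36.8, 42.3 and 43.5 in the red1 deletion, against 1.44, 1.48 and 1.76 in wild type (4.71 ± 0.36, adjusted p = 0.00354). The unnamed coding genes SPBPB2B2.05, SPBPB2B2.06c, SPBPB2B2.07c, SPBPB2B2.08 and SPBPB2B2.14c rose by 3.85, 6.19, 5.95, 5.20 and 5.87, and the non-coding RNA SPNCRNA.1695 beside nrg1 by 5.64.

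Not every gene of the region was expressed. tgd1, between gal7 and gal10, had at most 0.237 scaled CPM in any of the 6 libraries and was not tested. Beyond SPBPB2B2.14c, SPBPB2B2.18 was tested and stood at 0.229, 0.314 and 0.592 in the red1 deletion, against 0.148, 0.524 and 0.409 in wild type, with overlapping groups (0.12, adjusted p = 0.931). On the other side, the coding gene fub2 stood at 2.92, 2.71 and 2.96 scaled CPM in the red1 deletion, against 0.148, 0.218 and 0.786 in wild type, and did not pass (3.17 ± 0.60, adjusted p = 0.0701).

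**Figure D3:**
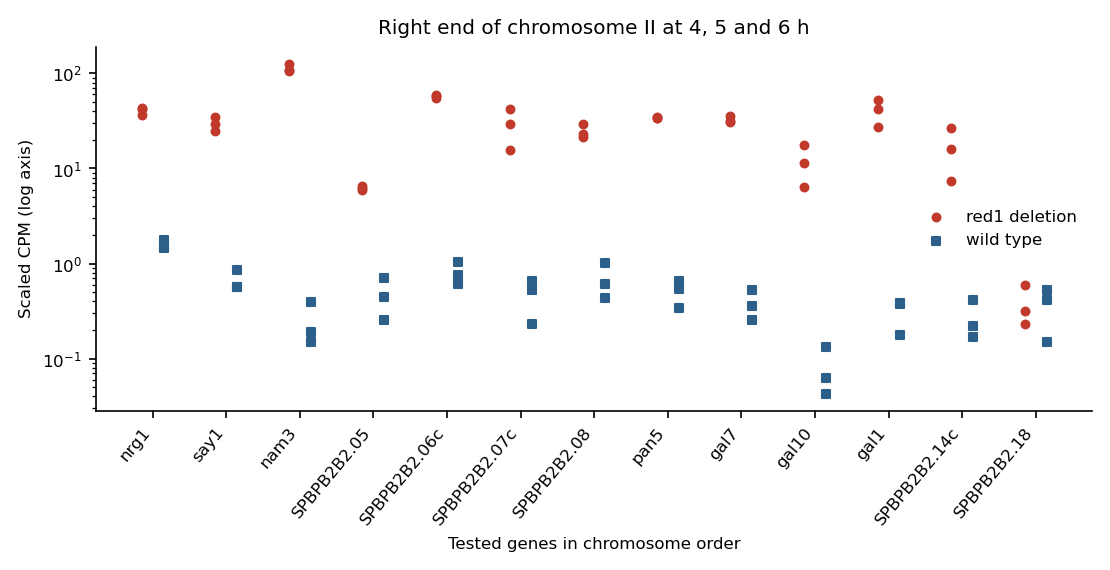
Scaled CPM (log axis) at 4, 5 and 6 h of the tested genes from nrg1 to SPBPB2B2.18, in chromosome order (x axis), in the red1 deletion (red circles) and wild type (blue squares), 1 point per library. The groups are apart for every gene but SPBPB2B2.18, where both lie under 1 scaled CPM.

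Within the block the red1 deletion libraries were not all alike. gal10, gal1, SPBPB2B2.07c and SPBPB2B2.14c were lowest at 4 h and highest at 6 h in the red1 deletion, with SPBPB2B2.14c at 7.42, 16 and 26.7 scaled CPM against 0.169, 0.218 and 0.409 in wild type. pan5 and SPBPB2B2.05 were level over the same hours, with SPBPB2B2.05 at 6.51, 6 and 6.18 in the red1 deletion and 0.254, 0.698 and 0.44 in wild type.

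The remaining genes that rose were spread over the genome. Of the 23, 20 lay in all 3 red1 deletion libraries above every wild-type library from 1 to 8 h, as did 5.14% of all genes. The exceptions were rec8, mug8 and met17. omt3, a non-coding RNA next to mei2, stood at 1930, 1720 and 1390 scaled CPM in the red1 deletion, against 154, 175 and 73.7 in wild type, and rose by 3.73 ± 0.39 (adjusted p = 0.0181). Among the wild-type hours of meiosis its highest level was 711 scaled CPM, at 1 h, while starved cells before meiosis had 1950 in the red1 deletion and 2310 in wild type.

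met17, which makes homocysteine, stood at 174, 169 and 184 scaled CPM in the red1 deletion, against 24.5, 32.4 and 45.5 in wild type, and rose by 2.41 ± 0.31 (adjusted p = 0.0414). The snoRNA gene sno12 stood at 231, 237 and 247 in the red1 deletion, against 27.9, 44 and 58.8 in wild type, and rose by 2.52 ± 0.34 (adjusted p = 0.0414). Both groups are apart, and neither call held without the 5 h pair (2.42, adjusted p = 0.179 for met17, and 2.57, adjusted p = 0.141 for sno12). sno12 also differed between the 2 vegetative wild-type libraries, at 48.5 and 4320 scaled CPM.

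pus2, a pseudouridine synthase gene, stood at 52, 51.4 and 60.2 scaled CPM in the red1 deletion, against 3.83, 4.8 and 9.06 in wild type, and rose by 3.30 ± 0.37 (adjusted p = 0.0251). By strand the log2 fold change was 1.02 (adjusted p = 0.169), so without strand its reads and those of the other strand cannot be told apart. The non-coding RNAs SPNCRNA.942 and SPNCRNA.513 rose by 3.92 ± 0.38 (adjusted p = 0.0114) and 3.73 ± 0.47 (0.0414), and SPMTR.02 by 4.40 ± 0.38 (0.00552). SPMTR.02 averaged 66.1 ± 6.18 scaled CPM in the red1 deletion and 3.17 ± 0.704 in wild type (SD, n = 3 each). These 3 were described after their values were seen.

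Of 833 long non-coding RNAs tested, 6 rose and 2 fell (median 0.23), beside 0.412% and 0.161% of all genes. In the 16-library fit 137 of 889 rose and 62 fell, beside 8.12% and 8.97% of all genes. Of 27 snoRNA genes, sno12 rose and none fell (median −0.09, and 0.37 when scaled to total reads), and 5 rose and 6 fell in the 16-library fit. Next in the list were snoU18 at 2.15 (adjusted p = 0.0645), snR101 at −2.07 (0.0618) and snR46 at −1.96 (0.0645). snR101 stood at 180, 175 and 197 scaled CPM in the red1 deletion, against 630, 761 and 957 in wild type.

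The wtf genes, a family of spore killers that act as poison and antidote in meiosis, stood lower in the red1 deletion. All 25 were tested, with 3 lower by the test and none higher (median −2.02, and −1.56 when scaled to total reads). Of all genes, 0.161% were lower and 0.412% higher. In the 16-library fit 23 fell, beside 8.97% of all genes. Of the 25, 21 had all 3 red1 deletion libraries below all 3 wild-type libraries, as did 15.1% of all genes. At each hour 19 stood at least 2-fold lower, as did 2.65% of all genes. Their summed level was 1430, 2190 and 2920 scaled CPM at 4, 5 and 6 h in the red1 deletion, against 4900, 9720 and 11100 in wild type. Members are near-identical copies that can share reads, so values of single members are uncertain.

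wtf16 stood at 11.3, 21.4 and 36.7 scaled CPM in the red1 deletion, against 49.6, 257 and 393 in wild type, and fell by 3.06 on the log2 scale (SE 0.41, adjusted p = 0.0414). wtf2 and wtf3, annotated as pseudogenes, had log2 fold changes of −2.75 ± 0.36 and −2.39 ± 0.31 (both adjusted p = 0.0414). The groups are apart for all 3. Without the 5 h pair none of the 3 calls held (adjusted p = 0.0652, 0.238 and 0.39 in the order wtf16, wtf2, wtf3), and without the block wtf16 was at −3.34 (adjusted p = 0.0715). Next below the threshold were wtf12 at −2.02 (adjusted p = 0.0549), wtf24 at −2.59 (0.0555), wtf18 at −2.20 (0.0555) and wtf11 at −2.48 (0.0604).

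**Figure D4:**
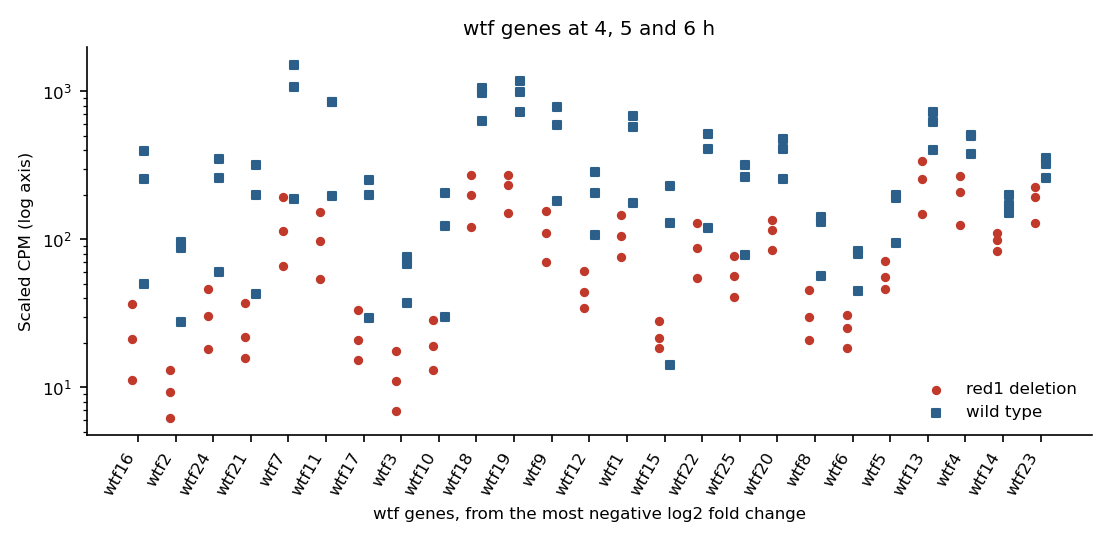
Scaled CPM (log axis) of the 25 wtf genes at 4, 5 and 6 h in the red1 deletion (red circles) and wild type (blue squares), 1 point per library, from the most negative log2 fold change on the left. In 21 of 25 genes the red1 deletion points all lie below the wild-type points.

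Apart from red1 and the wtf genes, 5 genes fell. SPAC212.04c, a coding gene near the left end of chromosome I described after its values were seen, stood at 4.35, 6.59 and 8.87 scaled CPM in the red1 deletion, against 375, 421 and 456 in wild type (−6.03 ± 0.39, adjusted p = 0.0035). In wild type it had 3.19 scaled CPM at 1 h, 14.7 at 2 h and 53.6 at 3 h. The red1 deletion at 4 to 6 h thus stayed below wild type at 2 h. Its tested neighbours SPAC212.08c, SPAC212.07c and SPAC212.06c were all under 1 scaled CPM in both strains, and none passed.

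ecl3, a short gene next to pho84 and of a family named for chronological lifespan, stood at 3.41, 2.78 and 3.4 scaled CPM in the red1 deletion, against 21.5, 23.9 and 26.8 in wild type (−2.91 ± 0.35, adjusted p = 0.0331). mug121, upregulated in meiosis, stood at 24.3, 39.2 and 57.7 in the red1 deletion, against 103, 251 and 313 in wild type (−2.40 ± 0.30, adjusted p = 0.0414). The non-coding RNA SPNCRNA.781 had a log2 fold change of −2.21 ± 0.31 (adjusted p = 0.0478). Groups are apart for all 3, and none passed without the 5 h pair (adjusted p = 0.194, 0.238 and 0.455 in the same order). By strand mug121 and SPNCRNA.781 fell short too (adjusted p = 0.078 and 0.0611), as did mug121 without the block (0.0518) and SPNCRNA.781 when scaled to total reads (0.0556).

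SPNCRNA.863 had 0 reads in each red1 deletion library, against 132, 53 and 85 in wild type (adjusted p = 0.0462). With a floor of 3 counts over the red1 deletion group it was at least 104-fold lower. The pir1 deletion also had 0 reads at 4, 5 and 6 h. By strand the log2 fold change was −1.53 (adjusted p = 0.105). Of the 9 genes that fell, red1, ecl3 and SPNCRNA.863 lay below every wild-type library from 1 to 8 h, as did 5.21% of all genes. SPNCRNA.781 and SPNCRNA.863 were described after their values were seen.

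Several more genes were at least 2-fold lower at each hour without passing. rmr1 stood at 21.5, 20.7 and 24.2 scaled CPM in the red1 deletion, against 107, 465 and 443 in wild type (−3.69 ± 0.54, adjusted p = 0.0547). otg2, mug114, snd2 and mme1 had log2 fold changes of −2.14 (adjusted p = 0.0555), −2.62 (0.0555), −2.09 (0.0618) and −2.04 (0.0618). srp7, the RNA of the signal recognition particle, took 3.55, 3.47 and 3.62% of gene reads in the red1 deletion, against 7.18, 8.22 and 10.3% in wild type (−1.72 ± 0.28, adjusted p = 0.0618).

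Spore wall genes were divided by timing and level. Of 13 tested, none rose or fell (median −0.08, and 0.38 when scaled to total reads), with hour medians of −1.11, −0.21 and 0.27. In the 16-library fit 3 of 13 fell, beside 8.97% of all genes. agn2, a glucanase that opens the ascus wall, stood at 1330, 2470 and 3740 scaled CPM in the red1 deletion, against 5520, 10400 and 13000 in wild type (−1.97 ± 0.32, adjusted p = 0.0618). mok14, a glucan synthase, averaged 6550 ± 3420 in the red1 deletion and 22000 ± 9240 in wild type (SD, n = 3 each; −1.80 ± 0.34, adjusted p = 0.0699). isp3, a protein of the spore surface, averaged 6250 ± 2240 in the red1 deletion and 15100 ± 6090 in wild type (SD, n = 3 each; −1.25 ± 0.30, adjusted p = 0.105). The glucanase gene eng2 was at −1.32 (adjusted p = 0.102). bgs2 crossed between 4 and 6 h, while in these 4 the red1 deletion was below wild type at each of those hours. mok14 was on the other side later, with 13500 and 13000 scaled CPM at 7 and 8 h in the red1 deletion, against 3990 and 2490 in wild type.

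Other lists had no member past the threshold in the 6-library fit. In the 16-library fit, beside 8.12% higher and 8.97% lower of all genes, 2 of 20 mating genes rose and 3 fell, 2 of 16 nitrogen starvation genes rose and 2 fell, and 3 of 16 core stress genes rose and 1 fell. Of 36 mitochondrially encoded genes 2 rose and 10 fell there, of 114 ribosomal protein genes none rose and 2 fell, and of 19 heterochromatin and RNAi genes 2 rose and none fell. M and P cell markers had 2 of 6 and 1 of 4 lower there, and no histone or phosphate gene passed in either fit. Mating and pheromone genes had a median of −0.06 over 20 genes (0.41 when scaled to total reads), with the receptor gene mam2 at −1.30 (adjusted p = 0.0914), the P-factor pheromone gene map2 at −1.37 (0.132), the kinase gene spk1 at 1.35 (0.189) and the adaptor gene ste4 at 1.04 (0.149). M cell markers had a median of −0.57 over 6 genes and P cell markers 0.03 over 4, and their part in the results was not tested. Nitrogen starvation genes had a median of 0.03 over 15, with urg2 at −1.79 (adjusted p = 0.0618), urg1 at −1.38 (0.0914), gdh2 at 1.57 (0.0722) and isp7 at 1.56 (0.0865). Core stress genes had a median of 0.35 over 16, with the chaperone gene hsp104 at 1.37 (adjusted p = 0.134) and gpd1 of glycerol synthesis at 1.07 (0.188). Phosphate genes had a median of 0.18 over 8, and the acid phosphatase gene pho1 was at 0.16 (adjusted p = 0.83).

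Among 19 heterochromatin and RNAi genes the median was 0.38. The histone H3 lysine methyltransferase gene clr4 had 1.49 (adjusted p = 0.0901) without strand and −1.26 (adjusted p = 0.153) by strand, so its direction depended on the count column. Histone genes had a median of −0.25 over 8, ribosomal protein genes −0.20 over 114 and mitochondrially encoded genes −0.37 over 36, and these 3 medians were 0.22, 0.27 and 0.10 when scaled to total reads. The ribosomal protein median was 0.21, 0.11 and −0.81 at 4, 5 and 6 h. Within that list rpl3202 had the most negative log2 fold change, −1.29 (adjusted p = 0.136), and copies of these genes can share reads.

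**Figure D5:**
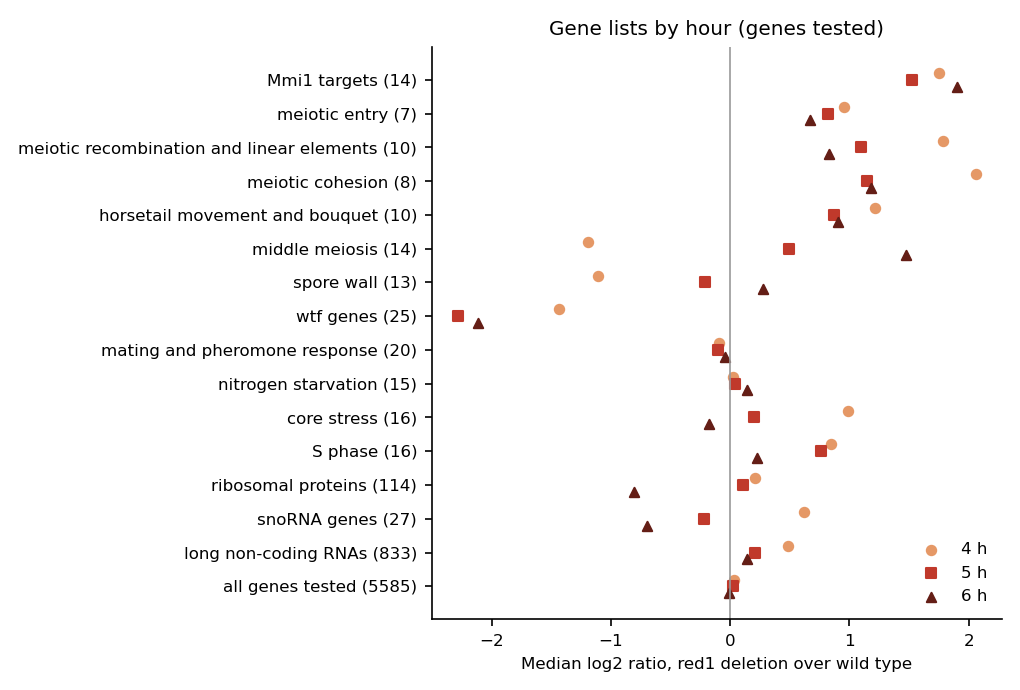
Median log2 ratio of the red1 deletion over wild type at 4, 5 and 6 h (symbols) for 15 gene lists and all genes, with the number of genes tested in brackets. Middle meiosis, here 14 genes counted without strand, goes across 0, with −1.19, 0.49 and 1.48. By strand its medians over 24 genes, not drawn, were −1.42, −0.13 and 2.22. Mmi1 targets stay above 1.5 and wtf genes below −1.4 at each hour.

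The effect at 4 to 6 h was set against the effect at 1 to 3 h and at 7 to 8 h in the 16-library fit, which tests the difference itself. Between 4 to 6 h and 1 to 3 h it differed in 3 of 5674 genes (0.0529%), all with the greater log2 fold change at 4 to 6 h, and 916 genes had an unadjusted p under 0.05. Between 4 to 6 h and 7 to 8 h it differed in 2 (0.0352%), with 632 at an unadjusted p under 0.05. Of the 32 genes that rose or fell at 4 to 6 h, 29 also passed at 1 to 3 h in that fit and 29 at 7 to 8 h. Of all 5674 genes, 229 rose and 151 fell at 1 to 3 h, and 169 rose and 287 fell at 7 to 8 h. rec8 was among those that passed at neither, with 0.97 (adjusted p = 0.394) at 1 to 3 h and 1.52 (0.155) at 7 to 8 h, though the differences from those phases did not pass either (adjusted p = 0.299 and 0.529).

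Loss of Pir1, which connects Mmi1 to Red1, was measured at the same hours in 3 libraries against the same 3 wild-type libraries, so both comparisons share their controls and only their values are given side by side. With the pir1 deletion 336 of 5402 genes rose (6.22%) and 327 fell (6.05%). Between 4 and 6 h, 218 of the 5100 genes changed at least 2-fold in the pir1 deletion. iss10 itself had −5.62 ± 0.38 (adjusted p = 0.000202) there. The labels do not say whether the pir1 deletion and wild-type libraries were prepared together. sno12 stood at 2000, 2700 and 3210 scaled CPM at 4, 5 and 6 h in the pir1 deletion, against 27.9, 44 and 58.8 in wild type. The 2 vegetative wild-type libraries had 48.5 and 4320. The part of library preparation in the pir1 values was not tested.

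Several genes of the chromosome II block had high values in both deletions. nam3 had a log2 fold change of 8.97 for red1 and 8.01 for pir1 (adjusted p = 9.02e-05 for pir1), and say1 had 5.49 and 7.23. pan5 had 6.12 for red1 and 5.97 for pir1, and gal1 6.95 and 2.88. SPBPB2B2.14c had 5.87 for red1 and 1.35 for pir1 (adjusted p = 0.117 for pir1). In scaled CPM gal1 stood at 27.3, 41.8 and 52.4 in the red1 deletion and 2.26, 2.4 and 2.51 in the pir1 deletion, while say1 stood at 25, 29.5 and 34.5 and at 79.3, 111 and 122 in the same order.

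For Mmi1 targets the values were rec8 2.85 and 1.93, mug8 2.71 and 1.20, and sme2 3.56 and 0.20, red1 before pir1. sme2 stood at 1970, 1730 and 1490 scaled CPM in the red1 deletion and 213, 187 and 127 in the pir1 deletion, against 333, 138 and 68.4 in wild type. Among the lower genes, SPAC212.04c stood at −6.03 and −0.26, ecl3 at −2.91 and −0.10, and the wtf median at −2.02 and −0.23. isp3 had opposite signs, −1.25 (adjusted p = 0.105) for red1 and 2.23 (0.00479) for pir1, as did pus2 with 3.30 and −1.30 (0.0357 for pir1). These pus2 values are without strand, and by strand its log2 fold change for red1 was 1.02 (adjusted p = 0.169, edgeR). The difference between the deletions was not tested.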

How the data were processed

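RNA was measured as whole-read counts per gene, not normalised, deposited by the authors in the layout of STAR gene counting; Trimmomatic and STAR are named per the submitters' processing notes. Neither their versions nor the genome build and gene models are given in the sources used here. Counts without strand were used, without the entries that stand for no gene (ambiguous reads made up 21.7 to 26.5% in the red1 deletion and 26.8 to 29.8% in wild type). Of 7015 features, 6861 matched the reference gene table, used for names and neighbours only, and 4425 had a symbol.

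Tests used R 4.3.3 and edgeR 4.0.16, with glmQLFit and glmQLFTest after TMM scaling and filterByExpr. Adjustment was by Benjamini-Hochberg, with a threshold of 0.05 and the hour as a block. In simulated counts with a fixed spread and no change between hours, 100% of planted changes were recovered, with 9 false calls. Wild type changed widely between the hours here, so that outcome does not carry over to these libraries. Hour ratios used a prior count of 2. Alternatives were DESeq2 1.42.0 size factors and test, total-count scaling, no filter, no block, each hour left out, the strand column and a fit of 16 libraries. Levels were scaled over 24 libraries. No pair of libraries was identical. Reads carry no molecular identifiers, so the floor covers counting error only.

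Members and lists were chosen with earlier results of these data known. By rule the text names genes with a symbol that averaged at least 20 reads, passed the threshold and kept 1 direction at all 3 hours (the 15 with the largest change each way). Where fewer than 10 passed, it names the 10 smallest p with at least 2-fold at every hour. It adds up to 4 members of each list by p and a preset group of anchors. A selection is printed.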

Additional observations from a re-analysis of the deposited data

Results flagged for a closer look

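In 5 genes the effect of the red1 deletion at 4 to 6 h differed from its effect in another phase of the course, by a test of the difference itself (edgeR, 16 libraries). Against 1 to 3 h, the hexose transporter genes ght7 and ght4 differed by 3.10 (adjusted p = 0.0267) and 2.57 (adjusted p = 0.045) on the log2 scale, and gcd1, a glucose dehydrogenase gene, by 3.41 (adjusted p = 0.0267). ght7 stood at 1.5, 1.75 and 2.1 scaled CPM at 4, 5 and 6 h in the red1 deletion and at 2.07, 1.7 and 2.33 in wild type. At 1, 2 and 3 h it stood at 1.84, 0.981 and 0.971 in the red1 deletion and at 20.3, 10.5 and 7.8 in wild type. gcd1 stood at 388, 349 and 242 at 4 to 6 h in the red1 deletion, against 155, 74.1 and 46.2 in wild type. Against 7 to 8 h, the meiotically upregulated genes mug89 and mug111 differed by −3.17 and −3.59 (both adjusted p = 0.0222). mug111 stood at 117, 201 and 298 scaled CPM at 4, 5 and 6 h in the red1 deletion, against 433, 1040 and 924 in wild type, and at 381 and 334 at 7 and 8 h in the red1 deletion, against 145 and 91.2 in wild type. Without the 5 h pair none of the 5 passed.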

How the results depend on the processing

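The counts of 23 higher and 9 lower genes moved with most settings, while the directions of the 32 genes did not. Higher and lower genes numbered 109 and 15 with total-count scaling, 234 and 297 with the DESeq2 test, 35 and 23 with no filter, and 461 and 509 with 16 libraries, and DESeq2 size factors gave 14 lower genes. Leaving out an hour gave 19 to 508 higher and 4 to 656 lower. Without the replicate block 105 rose and 53 fell, and 30 of the 32 calls were kept. Same-hour libraries of both strains did not deviate together (correlations 0.02, 0.03 and −0.04 over 5585 genes), and the labels give them a shared hour only. The counts of 3 and 2 genes differing from 1 to 3 h and from 7 to 8 h became 6 and 25 with total-count scaling and 0 and 0 without the block. The count against 7 to 8 h became 5 with no filter. Leaving out an hour gave 0 to 1116 and 0 to 724, and the cause was not tested.

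Directions reversed for clr4 by strand (−1.26), for iss10, mmi1 and rrp6 with total-count scaling (0.15, 0.41 and 0.32) and for bgs2 with no block (−0.44). Leaving out an hour gave −0.266 to 0.091 for mmi1, −0.112 to 1.66 for mei4, −0.089 to 2.09 for mes1, −0.999 to 1.07 for bgs2 and −0.009 to 0.288 for pho1. Precision is limited by 1 library per strain and hour, and for gal10, SPNCRNA.1695 and sgo1 also by few wild-type reads.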
